A study of Mus musculus with 4 samples.

Results

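The 9 genes described here encode parts of the complement cascade, out of 23350 gene entries found in both deposited tables. They were chosen by name: the 3 chains of the recognition molecule C1q (C1qa, C1qb and C1qc), 5 further components (C1ra, C2, C3, C4b and Cfb) and 1 receptor, C3ar1. RNA was sequenced from the Achilles tendon of male Scx-EGFP homo mice with a C57BL/6 background, in which green fluorescent protein reports the tendon transcription factor gene Scx. A sham operation on the left hindlimb or a tenotomy (surgical transection of the tendon) on the right hindlimb was done in neonates of 7 days or adults of 6 months, and RNA was taken 5 days later. Each group is 1 library from a pool of mice: 11 for the 7-day sham, 11 for the 7-day tenotomy, 5 for the 6-month sham and 9 for the 6-month tenotomy. After tenotomy the distal stump was collected free of the connective tissue around it, and the labels of these pools also call the tendon uninjured. They were grouped by the operation named there. With 1 pool per group there is no replicate check and no test between groups. Values are FPKM, the fragments of a gene corrected for its length and for the size of the library.

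Complement is a set of proteins that tags particles for clearance. In the classical pathway C1q binds its target, the C1r and C1s proteases attached to it cut C4 and C2, and the resulting complex cuts C3. In the alternative pathway factor B, encoded by Cfb, takes the place of C2, and C3a, the small piece cut from C3, acts through the receptor encoded by C3ar1. Much of the circulating supply comes from the liver, but C1q in tissues is made mostly by macrophages and dendritic cells, while fibroblasts and other stromal cells can make C1r, C1s, C3, C4 and factor B. Macrophages make several of those as well, so a bulk library does not say which cell a transcript came from.

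The C1q chains lie side by side on mouse chromosome 4 (mm10, positions as in the deposited tables): C1qb at chr4:136880145-136886177, C1qc at chr4:136889802-136892914 and C1qa at chr4:136895916-136898844. Cfb (chr17:34856374-34862514) and C2 (chr17:34862602-34882100) stand 87 bases apart, C4b (chr17:34728381-34743897) lies 112.5 kb before Cfb, and C3 is at chr17:57203973-57228136. C1ra (chr6:124512621-124523440) and C3ar1 (chr6:122847140-122856157) are on chromosome 6. RefSeq promoter sequences on GRCm38.p6, the assembly of mm10, were at hand for C1qb, C1qc, C1ra, C3 and C3ar1. The 250 bases before the start of C1qb and C1qc, C1q chains whose levels were higher after tenotomy at both ages, and of C3, whose ratio turned between the ages, are shown 5′ to 3′ on the strand of the gene (the minus strand for all 3). Capitals mark matches to GAGGAA (the core bound by the myeloid factor PU.1), TTGCNNAA (C/EBP factors) or TGANTCA (AP-1), searched on both strands.
C1qb, chr4:136886201-136886450: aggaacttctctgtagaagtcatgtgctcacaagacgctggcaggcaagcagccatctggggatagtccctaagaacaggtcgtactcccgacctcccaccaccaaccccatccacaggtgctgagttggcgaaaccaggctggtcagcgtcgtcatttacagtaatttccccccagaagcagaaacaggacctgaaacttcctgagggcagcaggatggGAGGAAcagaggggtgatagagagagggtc
C1qc, chr4:136892915-136893164: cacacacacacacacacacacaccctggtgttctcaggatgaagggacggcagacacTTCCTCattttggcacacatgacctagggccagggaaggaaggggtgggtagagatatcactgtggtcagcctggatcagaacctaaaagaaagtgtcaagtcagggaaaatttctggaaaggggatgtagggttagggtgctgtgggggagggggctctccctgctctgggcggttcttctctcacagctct
C3, chr17:57228137-57228386: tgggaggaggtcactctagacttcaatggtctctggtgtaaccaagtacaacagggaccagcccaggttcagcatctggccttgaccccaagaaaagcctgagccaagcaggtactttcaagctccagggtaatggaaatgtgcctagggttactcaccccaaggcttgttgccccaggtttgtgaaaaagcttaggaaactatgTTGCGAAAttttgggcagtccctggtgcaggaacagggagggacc
The C1qb stretch held the PU.1 letters 30 to 25 bases before the start, on the strand of the gene. In C1qc they stood 193 to 188 bases before it on the opposite strand, counted from a start at chr4:136892914. The RefSeq span of C1qc runs on to chr4:136892936, so the last bases of its stretch lie inside that span. Of 32851 RefSeq promoters 23.3% held the PU.1 letters in the same window, so a match there is common. The C3 stretch held the C/EBP letters at 45 to 38 bases, as did 9.56% of promoters anywhere in the window. C3ar1, not shown, held the AP-1 letters at 22 to 16 bases (6.75% of promoters), and C1ra held none of the 3 motifs. No 2 of these matches overlapped.

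The sham libraries of both ages carried transcripts of all 9 genes. In the 7-day sham library the C1q chains were highest (C1qb 44.8, C1qa 43.0 and C1qc 28.9 FPKM), followed by C4b (23.8), C3 (21.2), Cfb (18.0), C1ra (9.17), C3ar1 (5.84) and C2 (4.58 FPKM). In the 6-month sham library C3 stood first at 93.8 FPKM, ahead of C1qb (57.7), C1qa (50.1), C4b (38.3), C1qc (27.2), Cfb (22.9), C3ar1 (5.96), C1ra (5.63) and C2 (3.86 FPKM). By their 95% counting intervals, neighbours in these orders were separate at only 3 steps: between Cfb and C1ra in neonates, and between C3 and C1qb and between Cfb and C3ar1 in adults. These intervals come from the number of fragments behind each value, between 17 (C2, 6-month sham) and 836 (C4b, 7-day tenotomy). They cover counting error only and say nothing of the spread between mice.

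**Figure D1:**
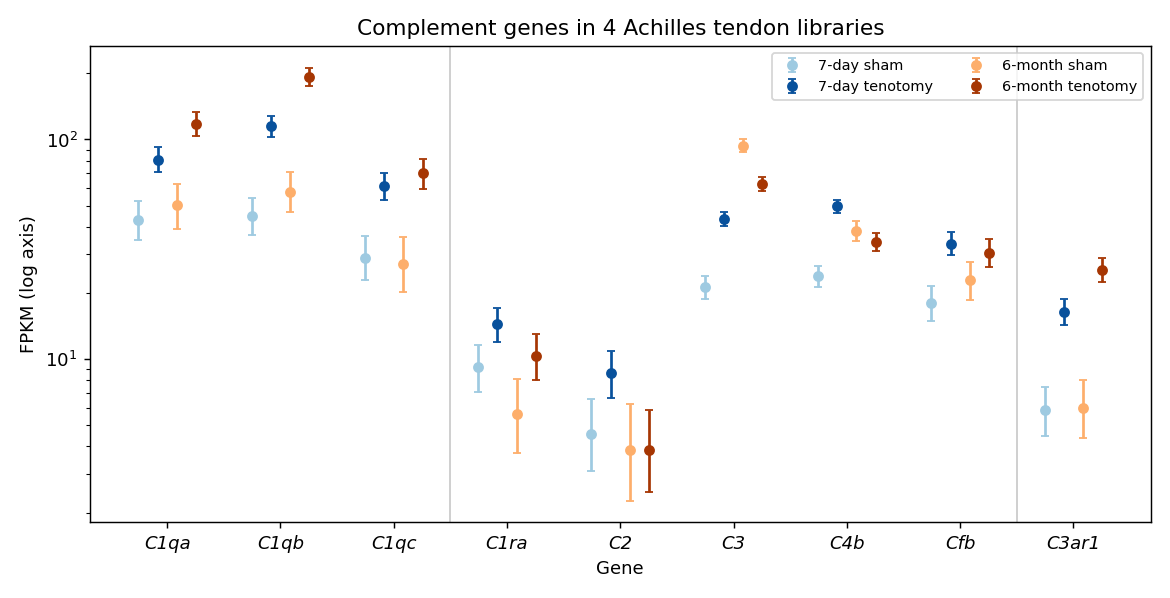
FPKM (vertical axis, log scale) of the 9 genes in the 4 libraries, 1 pool each, with bars for the 95% counting interval; grey lines part the C1q chains, the other components and the receptor. In the C1q chains, C1ra, Cfb and C3ar1 both tenotomy points lie above both sham points, whereas C3 is highest in the 6-month sham library at 93.8 FPKM.

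C3 set the adult sham library apart from the neonatal one. It stood at 21.2 FPKM in neonates and 93.8 in adults, an FPKM ratio of 4.42 (95% counting interval 3.85 to 5.08). C4b was also higher in the adult sham library, with a ratio of 1.61 (1.38 to 1.88), and C1ra was lower, at 0.614 (0.382 to 0.970). For the C1q chains, C2, Cfb and C3ar1 the interval included 1. On the scale used for calls, log2 of (FPKM + 1), C3 differed by 2.09 and was the only one of the 8 genes reaching 5 FPKM in a sham library to pass 2-fold. Across all genes 6.67% were 2-fold higher and 13.1% 2-fold lower in the adult sham library. The 2 tables were made separately. Marker lists of other cells differed between these libraries too: summed adipocyte markers stood at 1651 FPKM in the neonatal and 244 in the adult sham library, mast cell markers at 96.3 and 5.81, and muscle genes at 15658 and 34932. Their part in the C3 level was not tested.

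In neonates all 9 genes were higher after tenotomy than after sham, where the median log2 ratio over all genes tested was 0.01. C1qa stood at 43.0 FPKM (sham) and 80.9 (tenotomy), C1qb at 44.8 and 114.7, and C1qc at 28.9 and 61.6 FPKM. Summed, the 3 chains of C1q went from 116.7 to 257 FPKM, a ratio of 2.20 (95% counting interval 1.92 to 2.53). The receptor gene C3ar1 had the highest ratio of the 9, with 5.84 FPKM (sham) and 16.4 (tenotomy), a ratio of 2.82 (2.13 to 3.79).

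The further components were higher by about the same factor at this age. C3, the component on which the pathways meet, stood at 21.2 FPKM (sham) and 43.5 (tenotomy), a ratio of 2.05 (1.78 to 2.36). C4b, the substrate of C1s, stood at 23.8 and 49.5 FPKM (2.08, 1.83 to 2.37). Cfb was at 18.0 and 33.5 FPKM (1.86, 1.5 to 2.32). C2, the counterpart of factor B in the classical pathway, was at 4.58 and 8.60 FPKM (1.88, 1.20 to 2.97), and the protease gene C1ra at 9.17 and 14.4 FPKM (1.57, 1.16 to 2.14). No interval of the 9 included a ratio of 1. The share of all genes with such an interval was not computed, so this count does not set the 9 apart.

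On the log2 scale with 1 FPKM added, tenotomy exceeded sham by 2-fold or more in 5 of the 9 genes at 7 days, and in none did it fall 2-fold short. Of the 9424 genes that reached 5 FPKM in at least 1 of the neonatal libraries, 5.55% were called higher and 10.3% lower. The 5 were C3ar1 (1.35), C1qb (1.34), C1qc (1.07), C4b (1.03) and C3 (1.0). C4b and C3 lay at the threshold, and C1qa (0.90) and Cfb (0.86) under it. With FPKM rescaled so that the median gene had a ratio of 1, 4 genes were called. With FPKM brought to a common sum, 6 were, C1qa (1.04) among them. The median over the 9 was 1.0, against 0.01 over all genes tested.

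In adults the C1q chains and C3ar1 were again higher after tenotomy, but C3 was not. C1qa stood at 50.1 FPKM (sham) and 118 (tenotomy), C1qb at 57.7 and 193, and C1qc at 27.2 and 70.1 FPKM. Their sum went from 135 to 381 FPKM, a ratio of 2.82 (2.43 to 3.28). C3ar1 was at 5.96 FPKM (sham) and 25.4 (tenotomy), a ratio of 4.26 (3.07 to 5.98) and again the highest ratio of the 9.

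C3 was lower after tenotomy, at 93.8 FPKM (sham) and 62.8 (tenotomy), a ratio of 0.669 (0.605 to 0.740) that stayed within 2-fold. On the log2 scale this was -0.57, or -0.24 with FPKM brought to a common sum. Even so its 62.8 FPKM was above the 43.5 FPKM of the neonatal tenotomy library. C4b stood at 38.3 and 34.0 FPKM (0.888, 0.770 to 1.03), slightly lower as deposited and slightly higher (log2 ratio 0.16) with FPKM brought to a common sum. C2 stood at 3.86 and 3.87 FPKM (1.0, 0.514 to 2.0), on 17 and 23 fragments. Cfb was at 22.9 and 30.4 FPKM (1.33, 1.05 to 1.71) and C1ra at 5.63 and 10.3 FPKM (1.82, 1.16 to 2.95), both higher without passing 2-fold.

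Of the 8 genes that reached 5 FPKM in an adult library, 4 were called higher (C3ar1 1.92, C1qb 1.73, C1qc 1.33 and C1qa 1.22 on the log2 scale) and none was 2-fold lower. Among all 9001 genes tested at this age, 9.62% were called higher and 11.9% lower. The median over all 9, with C2 under that floor, was 0.77, against -0.03 over all genes tested. Bringing FPKM to a common sum scaled the tenotomy values up by 0.34 on the log2 scale in adults and 0.14 in neonates, and 5 of the 9 were then called higher in adults, C1ra (1.07) among them. In the authors' deposited tables no complement gene of the 9 was called significant at either age, where 0.859% of 10476 genes tested at 7 days and 0 of 8897 at 6 months were. Their unadjusted p-values were under 0.05 for C3ar1 at 6 months (0.00955, q-value 0.755), C3ar1 at 7 days (0.0489, q-value 0.997) and C1qb at 6 months (0.0334, q-value 0.927). Those p-values compare single pools, and C2 was listed as not tested at 6 months.

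**Figure D2:**
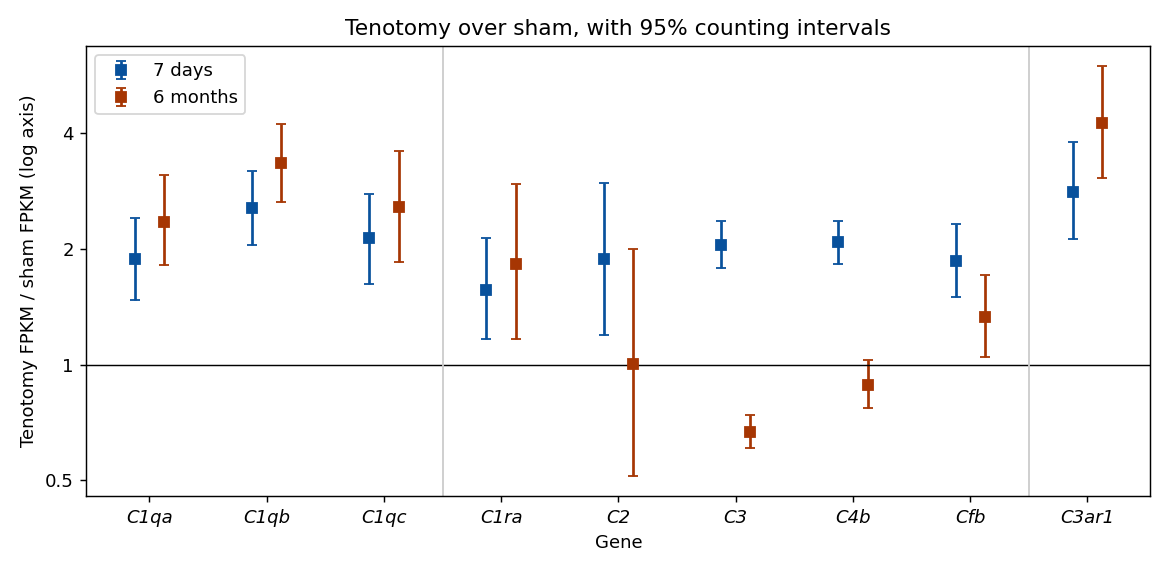
Tenotomy FPKM over sham FPKM (vertical axis, log scale) of the 9 genes at 7 days (blue) and 6 months (brown), with 95% counting intervals; the black line marks equal levels. At 7 days the points lie between 1.57 and 2.82, while at 6 months they run from 0.669 for C3 to 4.26 for C3ar1.

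C1q and the other components moved apart after tenotomy in adults more than in neonates. The median log2 ratio of the 3 C1q chains was 1.07 at 7 days and 1.33 at 6 months. For C1ra, C2, C3, C4b and Cfb it was 0.86 at 7 days and 0.00 at 6 months. The latter is the value of C2, which was under 5 FPKM, and without it the median was 0.11. The gap between the medians with C2 was 0.21 in neonates and 1.33 in adults. By level, summed C1q was 1.52 times the summed other components in the 7-day sham library and 1.72 times in the 7-day tenotomy library. At 6 months it was 0.820 times after sham and 2.70 times after tenotomy. C3 alone made up 57.0% of the other sum after adult sham and 44.4% after adult tenotomy, against 27.7% and 29.1% in neonates. The other components did not move as a group in adults: C1ra (log2 ratio 0.77) and Cfb (0.39) were higher, C3 (-0.57) and C4b (-0.17) lower.

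Subtracting the 6-month from the 7-day log2 ratio put C3 (1.58) and C4b (1.20) past 2-fold, both with the higher ratio in neonates. Across 10077 genes, 5.64% passed 2-fold in that direction and 8.82% in the other. C2 (0.78) and Cfb (0.47) differed in the same direction. The C1q chains (-0.27 to -0.39), C1ra (-0.17) and C3ar1 (-0.57) had the higher ratio in adults, by less than 2-fold. For C3 and for C4b the counting intervals of the 2 ages did not overlap; for each C1q chain, C1ra, C2, Cfb and C3ar1 they did. Across 9516 genes 18.1% had intervals that did not overlap, so 2 of 9 is near the share over all genes. The difference between ages was not tested, since each rests on 4 single pools.

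Levels of the C1q chains were not equal. The chains assemble into the protein in equal numbers, and C1qc stood at 0.671, 0.761, 0.542 and 0.594 times C1qa (neonates after sham and tenotomy, then adults after sham and tenotomy). C1qb was close to C1qa after sham (1.04 times at 7 days, counting interval 0.785 to 1.39, and 1.15 times at 6 months, 0.846 to 1.60). After tenotomy it was 1.42 times (1.19 to 1.68) and 1.64 times (1.39 to 1.93) the C1qa level. The intervals of sham and tenotomy overlapped at both ages. The 3 transcripts are short (1040, 1088 and 1203 bases), where FPKM depends most on how fragment length is handled.

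Macrophage genes were higher in the same libraries as C1q. The 15 markers listed, all found and none at 0 in any library, summed to 438 FPKM in the 7-day sham, 1074 in the 7-day tenotomy, 479 in the 6-month sham and 1881 in the 6-month tenotomy library. At 7 days 8 of 15 were at least 2-fold higher and at 6 months 12 of 15, with none lower by that much. Of all genes tested, 5.55% at 7 days and 9.62% at 6 months were that much higher. At 7 days some markers were nearly level, with Cd163 at 7.37 and 6.58 FPKM, Mertk at 7.79 and 7.45, Fcgr3 at 30.8 and 34.7 and Mrc1 at 38.7 and 47.0 FPKM. The highest were Lyz2, encoding lysozyme (187, 515, 278 and 1083 FPKM), Ctss, encoding cathepsin S (26.3, 148, 29.7 and 235 FPKM) and Tyrobp, a signalling adaptor (31.4, 78.9, 28.4 and 134 FPKM, each in the same order). Summed C1q equalled 26.6%, 23.9%, 28.2% and 20.3% of that marker sum. By sums the share was lower after tenotomy at both ages (log2 -0.15 at 7 days and -0.48 at 6 months). Without Lyz2, the marker of highest FPKM, it was nearly level at 7 days (-0.01) and lower at 6 months (-0.49). By mean log2 values it was higher at 7 days (0.16) and lower at 6 months (-0.17), so the 7-day direction turned on the measure. In bulk tissue, more macrophages and more C1q RNA per macrophage cannot be told apart.

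**Figure D3:**
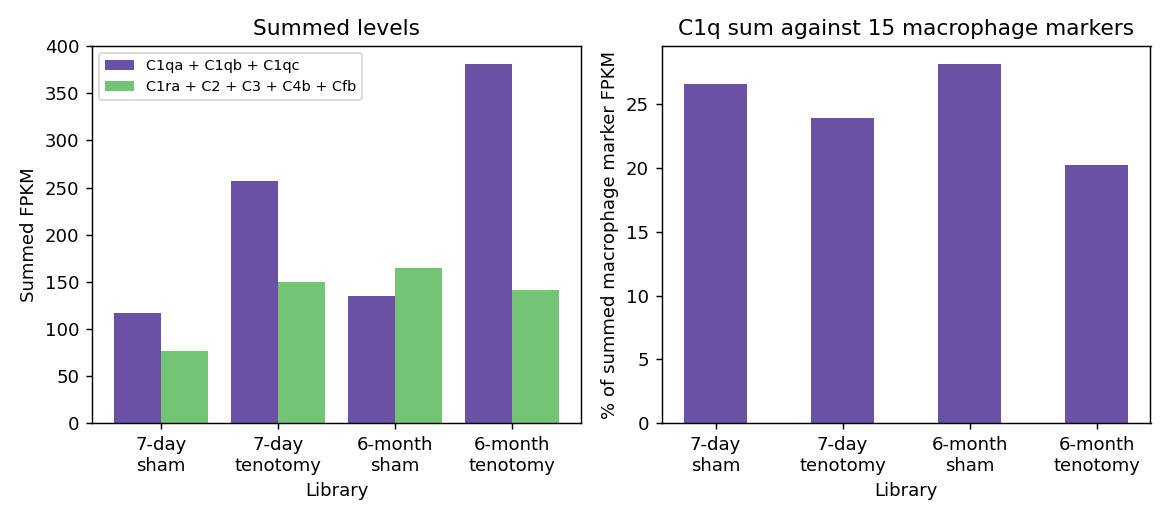
Left, summed FPKM of the 3 C1q chains (purple) and of C1ra, C2, C3, C4b and Cfb (green) in each library; right, the C1q sum as a percentage of the summed FPKM of 15 macrophage markers. The C1q sum is highest in the 6-month tenotomy library (381 FPKM), where its share of the marker sum is lowest (20.3%).

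Set against fibroblast markers, the other components gave a higher share after tenotomy at 7 days, and at 6 months a share whose direction turned on the markers counted. All 11 fibroblast markers were found and none was at 0. Their sum was 26654, 19985, 9328 and 9693 FPKM in the same order of libraries, made up mostly of Col1a1 (22438, 13215, 5578 and 5766 FPKM), with Col3a1 and Dcn next. Against that sum the other components stood at 0.288%, 0.748%, 1.76% and 1.46%. The log2 difference between tenotomy and sham was 1.38 at 7 days and -0.28 at 6 months, but without the 2 collagens it was 0.67 at 7 days and 0.68 at 6 months. With Dcn left out as well, an alternative chosen after seeing the data, it was 0.31 and -0.52. By gene, 8 of the 11 fibroblast markers had a ratio above 1 at 6 months (median log2 ratio 0.20), with Dpt alone called higher and Dcn alone called lower. Dcn, a small proteoglycan gene of fibroblasts and tenocytes, stood at 1590 FPKM in the adult sham and 494 in the adult tenotomy library, and Comp, a tendon matrix gene, at 1443 and 156 FPKM. Among all genes tested at 6 months 9.62% were called higher and 11.9% lower, and the fibroblast counts of 1 in 11 each way are near those shares. Of 7 tenocyte markers 5 were called lower at 6 months, and Tnmd, at 36.9 and 47.0 FPKM, was the 1 with a ratio above 1. The 7 summed to 2705 FPKM after adult sham and 744 after tenotomy, in the libraries where C3 stood at 93.8 and 62.8 FPKM. Their part in the C3 ratio was not tested.

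Liver transcripts were near absent. Of 6 hepatocyte genes, Alb, Apoa1, Ttr, Ahsg and Fgb were listed at 0 in all 4 libraries and Serpina1a reached 0.364 FPKM at most. Muscle genes summed to 15658 and 32.6 FPKM in the neonatal sham and tenotomy libraries and to 34932 and 10656 FPKM in the adult ones, neutrophil genes to 23.0, 84.1, 25.5 and 133 FPKM, dendritic cell genes to 4.06, 9.39, 6.20 and 15.3 FPKM and endothelial genes to 179, 308, 88.7 and 147 FPKM. Of all genes tested, 5.55% were 2-fold higher at 7 days and 9.62% at 6 months. Of 12 interferon-response genes, 3 of 10 at the floor were 2-fold higher at 7 days and 3 of 8 at 6 months. Their part in the complement levels was not tested.

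Of 47 other complement genes listed, all were found, 3 of them under an older symbol, and 15 reached 5 FPKM in a library. Another 13 were listed at 0 in all 4 libraries, among them C6, C9 and Hc (the mouse C5 gene) of the terminal pathway and Mbl1, Mbl2 and Masp2 of the lectin pathway. At 7 days 2 of the 14 genes at the floor were 2-fold higher and none lower. Of all genes tested at that age, 5.55% were higher and 10.3% lower. At 6 months 5 of 15 were higher and 2 lower, beside 9.62% and 11.9% of all genes tested. The 2 lower of 15 is thus near the share over all genes. The median log2 ratio over those at the floor was 0.47 at 7 days and 0.15 at 6 months, where all genes tested gave 0.01 and -0.03. Over all 47 it was 0.00 at both ages, but 32 of them never reached the floor.

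The genes higher at both ages were Itgam, the alpha chain of complement receptor 3 (4.01 and 11.8 FPKM at 7 days, 6.33 and 24.8 at 6 months), and Cfp, encoding properdin, which stabilises the alternative pathway convertase (6.16 and 16.5, then 11.3 and 33.2 FPKM). Itgb2, the beta chain of that receptor (5.04 and 10.4, then 9.80 and 30.4 FPKM), the C5a receptor gene C5ar1 (5.06 and 9.21, then 3.89 and 16.1 FPKM) and Cd93 (35.4 and 49.3, then 15.8 and 41.0 FPKM), a gene of endothelial and myeloid cells, passed 2-fold in adults and not in neonates on the log2 scale with 1 FPKM added. Itgb2 was close to it in neonates at 0.92, or 1.05 with FPKM brought to a common sum. Whether those ages differ was not tested.

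The 2 genes lower in adults were Clu and C7. Clu, encoding clusterin, which blocks the terminal complex, stood at 664 FPKM after adult sham and 42.9 after tenotomy, and at 24.0 and 32.9 FPKM in neonates. C7, a terminal component, stood at 27.4 and 13.0 FPKM in adults, and in neonates the sham library listed it at 0 and the tenotomy library at 0.486 FPKM. The C7 ratio of -1.03 on the log2 scale was -0.71 with FPKM rescaled to a common sum, short of 2-fold. Like C3, both were far higher in the adult than in the neonatal sham library. Serping1, the C1 inhibitor gene, was at 70.2 and 103 FPKM in neonates and 84.5 and 57.6 FPKM in adults.

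**Figure D4:**
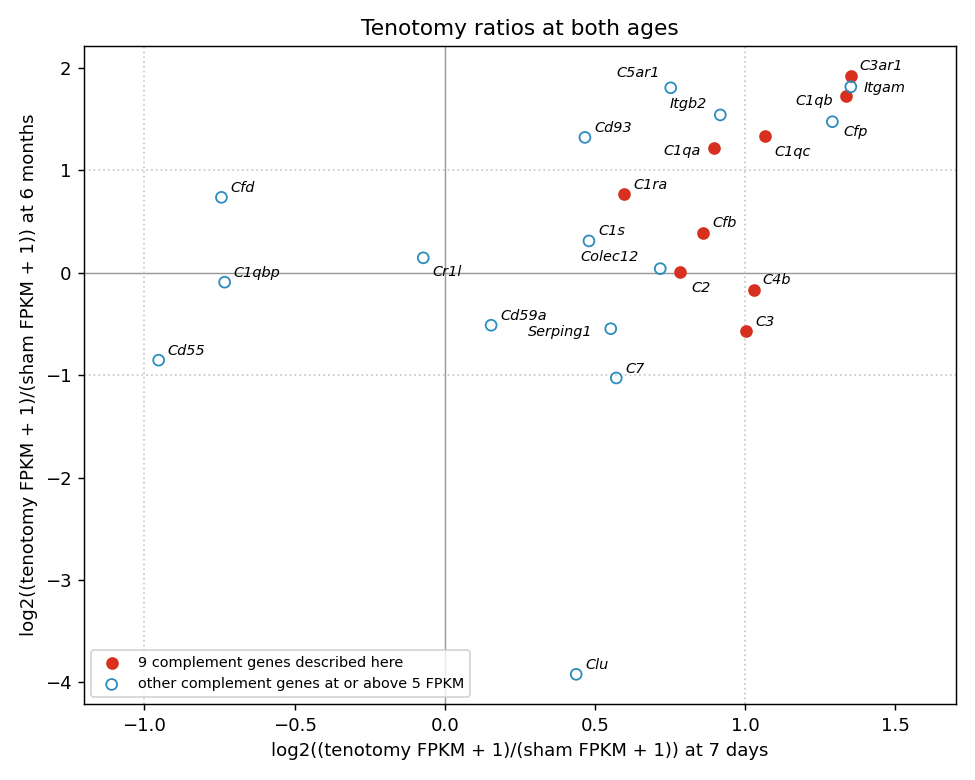
Log2 ratio of tenotomy to sham at 7 days (horizontal) and 6 months (vertical) for the 9 genes (red) and 15 other complement genes (open blue), 1 point per gene; dotted lines mark 2-fold. C3, C4b, Cd59a, C7, Serping1 and Clu lie to the right of 0 and below 0, and Clu is lowest at -3.92 in adults.

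Other named genes stayed within 2-fold on the log2 scale with 1 FPKM added, Cd55 at 7 days only just (-0.95). C1s, whose product pairs with that of C1ra, stood at 15.6 and 22.2 FPKM in neonates and 20.7 and 25.9 FPKM in adults. The membrane regulator genes Cd55 (28.0 and 14.0, then 17.4 and 9.19 FPKM) and Cr1l (26.9 and 25.6, then 19.7 and 21.9 FPKM) protect host cells, as does Cd59a (4.85 and 5.51, then 6.33 and 4.14 FPKM). Colec12, a scavenger receptor gene, was at 29.5 and 49.2, then 23.3 and 24.0 FPKM, and C1qbp, a largely mitochondrial protein gene, at 39.7 and 23.5, then 24.1 and 22.5 FPKM. Cfd, the adipsin gene of fat cells, was at 230 and 137 FPKM in neonates and 33.6 and 56.6 FPKM in adults, where a common sum put its log2 ratio at 1.07, past 2-fold. Its entry shares 1 locus label with 45 other entries, so its value is uncertain. The adipocyte markers beside it summed to 1651 and 666 FPKM in neonates and 244 and 295 FPKM in adults.

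Likeness of pattern was measured as the distance between log2(FPKM + 1) values over the 4 libraries, each gene centred on its own mean, among 6769 genes at or above 10 FPKM in a library. Nearest to the mean C1q profile were Lyn (distance 0.110), Emr1 (0.148), Lrrc33 (0.154), Sirpa (0.186) and Laptm5 (0.197). Each C1q chain lay farther from that mean than these genes (C1qa 0.212, C1qc 0.285 and C1qb 0.351). Emr1, a macrophage surface receptor gene, and Laptm5 are in the macrophage list. Among the 9 genes, C3ar1 lay at 0.394 and Cfb at 0.785 from that profile, and C3 was the farthest of the 9 at 1.72. Nearest to C3 were Mical2 (0.174), Cilp (0.320), Slc20a1 (0.421), Nfil3 (0.447) and Rasa4 (0.447). C4b lay at 1.27 from C3, farther than all 5. These distances rest on 4 pools and on 2 tables made separately.

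Near-identical copies limit C1ra and C4b, and C1s among the other complement genes. Of all 75-base windows of the C1ra transcript, 40.1% also occur in C1rb, and of those of C4b 23.5% occur in C4a. For C1s it is 14.7%, shared with C1s2. These copies were near 0 in these tables (C1rb at 0 in all 4 libraries, C4a at most 0.319 and C1s2 at most 0.167 FPKM). No source used here says how shared reads were assigned. C2 and Cfb, though related, share no such window.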

How the data were processed

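Per the submitters' processing notes, TopHat, Cufflinks and the mm10 build were used, with no roles or versions; no source used here names the annotation or a scaling between libraries. Per the labels' protocols, libraries were made after ribosomal RNA depletion from RNA with integrity values below 8. The authors deposited 1 table per age with an FPKM value for each library and a p-value and q-value for each gene, and these p-values come from single pools. Some items are not reported here: a line of each table was not used.

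Ratios were computed as log2((tenotomy FPKM + 1)/(sham FPKM + 1)) for genes reaching 5 FPKM in at least 1 of the libraries compared, and called at 2-fold; plain FPKM ratios are given beside them. Fragment counts were recovered from the low FPKM of genes with a single transcript, 800 bp or longer, taking 200 bp off each length. Values within 0.1 of a whole fragment made up 73.7% to 76.2% of these genes, at depths of about 2680000 (7-day sham), 3260000 (7-day tenotomy), 1790000 (6-month sham) and 2410000 fragments (6-month tenotomy). Single-gene ratio intervals are exact Clopper-Pearson intervals on the pair of counts, level intervals are exact Poisson, and intervals of summed FPKM use the Poisson variance; all cover counting error only. The calls and intervals were run on simulated data with counting error alone, drawn from the same depths and lengths. Planted changes were larger than 2-fold. That run could not check the recovered fragment counts, calls near the threshold or the spread between pools.

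The 9 genes, the gene lists and the rules were chosen with earlier results of these data known. Named genes are the 9, other complement genes past 2-fold at either age or at or above 20 FPKM, the 5 nearest profiles to C1q and to C3, and up to 3 of the highest markers of a list. Cd59a, Cd163, Mertk, Fcgr3, Mrc1, Dpt, Tnmd, Comp, Serpina1a, C1rb, C4a, C1s2 and the genes listed at 0 were named after their values were seen. Transcript sequences came from GENCODE M21. Alternatives changed the pseudocount (0.1 and 5 FPKM), the floor (none and 20 FPKM), the scaling and the markers. Python 3.11.15, NumPy 2.4.6, pandas 2.3.3, SciPy 1.17.1, Biopython 1.88 and matplotlib 3.10.9 were used.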

Additional observations from a re-analysis of the deposited data

Results flagged for a closer look

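For 8 of 24 complement genes that reached 5 FPKM in a library the ratio of tenotomy to sham lay on opposite sides of 1 at the 2 ages, each age with 1 pool per group, as it did for 28.4% of all 10077 genes at that floor. The difference between ages was not tested. The 7-day minus 6-month difference in log2 ratio was 1.58 for C3, 1.20 for C4b, 1.60 for C7, 4.36 for Clu, 0.67 for Cd59a and 1.10 for Serping1, all higher after tenotomy in neonates and lower in adults. The neonatal side of C7 rests on 0 and 4 fragments, under the floor at that age, with a counting interval that included 1. For Cfd the difference was -1.48 and for Cr1l -0.22, both the other way round. With FPKM rescaled to a common sum, C4b turned to a higher value in adults (0.16) and Cr1l to a higher value in neonates (0.06).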

How the results depend on the processing

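Of 148 alternative values computed, 124 stayed within the counting interval or within 1.5 times the count, 24 moved and no value past 2-fold changed sign. Under 2-fold, 5 values of 4 results changed sign. With a pseudocount of 5 FPKM 1 of the 9 genes (C1qb) was called higher at 7 days in place of 5, and 0 of the other complement genes in place of 2. The other complement genes called lower at 6 months numbered 1 in place of 2 with that pseudocount, with a common sum and with the median ratio set to 0. With no floor the other complement genes called higher numbered 5 at 7 days and 9 at 6 months, and with a floor of 20 FPKM 0 at 7 days. The authors' deposited call gave 0 higher at either age, and 0 lower at 6 months, for the 9 genes and for the other complement genes. A common sum put the summed C1q log2 ratio at 6 months at 1.83 in place of 1.49. With the median ratio set to 0, the adult over neonatal sham log2 ratio was 2.34 for C3 and 0.91 for C4b. By mean log2 values, C1q against macrophage markers was 0.16 at 7 days and -0.17 at 6 months, and the other components against fibroblast markers 0.49 and 0.0072; without Col1a1 and Col3a1 the latter were 0.67 and 0.68, and without Dcn too, chosen after seeing the data, 0.31 and -0.52. Leaving out Cfd, an alternative chosen after seeing the data, could change no count, since as deposited Cfd was within 2-fold at both ages. Those unchanged counts are among the 124. No paired analysis was possible because each group is 1 pool and the labels give no replicate numbers. The 17 fragments behind C2 in the 6-month sham library leave its adult ratio between 0.514 and 2.0.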
